A study of Mus musculus with 50 samples.

Results

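Complement components and regulators were followed in wobbler mice, which are homozygous for the mutation wr (wr/wr), in spinal cord and in testis. The set was defined by gene symbol and held 7 genes, C1qa, C1qb, C1qc, C3, C4b, Cfb and Serping1. Of the 20355 probes in the deposited values, 14030 carried exactly 1 platform gene symbol, naming 9930 genes in all, and 6 of these probes named 5 of the 7 genes. C1qa (probe 4926), C1qb (probe 16577), C1qc (probe 5863) and Serping1 (probe 30) had 1 probe each, and Cfb had probes 6980 and 12519, which share 1 target gene. No probe was listed under C3 or C4b, and both genes were not analysed here. Each of the 6 probes had a value on all 50 arrays, except probe 12519, which had a value on 49.

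Complement is a cascade of proteins that tags targets for uptake or lysis. In the classical pathway, C1q, a hexamer of units assembled from the chains encoded by C1qa, C1qb and C1qc, recognises the target and activates the proteases C1r and C1s, whereas in the alternative pathway factor B supplies the protease of the convertase that cleaves C3. C1q of the central nervous system is made mainly by microglia, it is a tag for synapses that microglia remove in development, and outside the nervous system it is made mainly by macrophages and dendritic cells.

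The wobbler mutation is recessive and lies in Vps54, whose product helps vesicles from endosomes dock at the Golgi, and homozygotes lose motor neurons and form abnormal sperm. Total RNA of each mutant sample was hybridised on 2-colour arrays against 1 pool of wild-type RNA of the same organ, and each dye carried the mutant sample on equal numbers of its arrays. The testis group held 10 individual wr/wr mice with 4 arrays each (40 arrays). The spinal cord group held 3 wr/wr RNAs on 10 arrays, namely pool1 and pool2, each made from 4 mice and hybridised on 4 arrays, and a cord of 1 animal, mouse 5995, on 2 arrays. The testes of all 9 cord mice were profiled too, and the labels used here give no age, no background strain and no treatment. The sample labels list 10 wild-type mice for the reference pool and the labelling protocol speaks of 6, a difference that was not settled. Because 1 pool stood for the wild type of an organ, the spread among wild-type mice is in no test here.

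Every value below is a deposited log2 ratio, centred on the median of its array. The arrays of 1 dye were averaged per RNA, and the Cy5 and Cy3 means were then averaged, so that an RNA counts once and a constant dye effect cancels. A value of 0 means that mutant and wild-type signals were equal relative to the array median. No source used here states the direction of the ratios. Wr/wr over wild type on every array is the likely reading, and under the opposite one every sign would turn. Means are given ± SD over RNAs, and a difference is called when its limma p-value, adjusted by Benjamini-Hochberg over all probes tested, is under 0.05. The probes with a value numbered 19070 to 20189 on a testis array and 18338 to 20034 on a cord array, and the median absolute deviation of an array was 0.121 to 0.443 in testis and 0.217 to 0.492 in cord. The ratios hold no expression levels, so the organ of an RNA was not checked against its marker genes, and levels of different genes were not compared. In such bulk RNA, a lower share of a cell type and less RNA per cell cannot be told apart.

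In the testis, 3 of the 6 probes were called, C1qa, C1qc and Cfb probe 6980, and all 3 were lower in the mutants, by small amounts. Over all 20218 probes tested, 12.3% were called in either direction and 5.06% were called below 0. In the spinal cord, C1qa and C1qc were above 0 on all 10 arrays, with means of 1.59-fold and 1.5-fold over the wild type, yet after limma's adjustment 0 of the 6 probes were called, and 0% of the 17055 probes tested. At an unadjusted p under 0.05 the cord gave 2 of the 6 probes and 1476 probes in all. The testis ratio lay below the cord ratio for all 6 probes, as for 8557 of the 17005 probes tested in both organs. For C1qb (-0.06) and Cfb probe 12519 (-0.07) the difference was small and changed sign on leaving out 1 RNA. The difference was called for 3 of the 6 probes. Of all probes tested in both organs, 21.2% were called, and 10.4% were called with the testis below the cord.

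**Figure D1:**
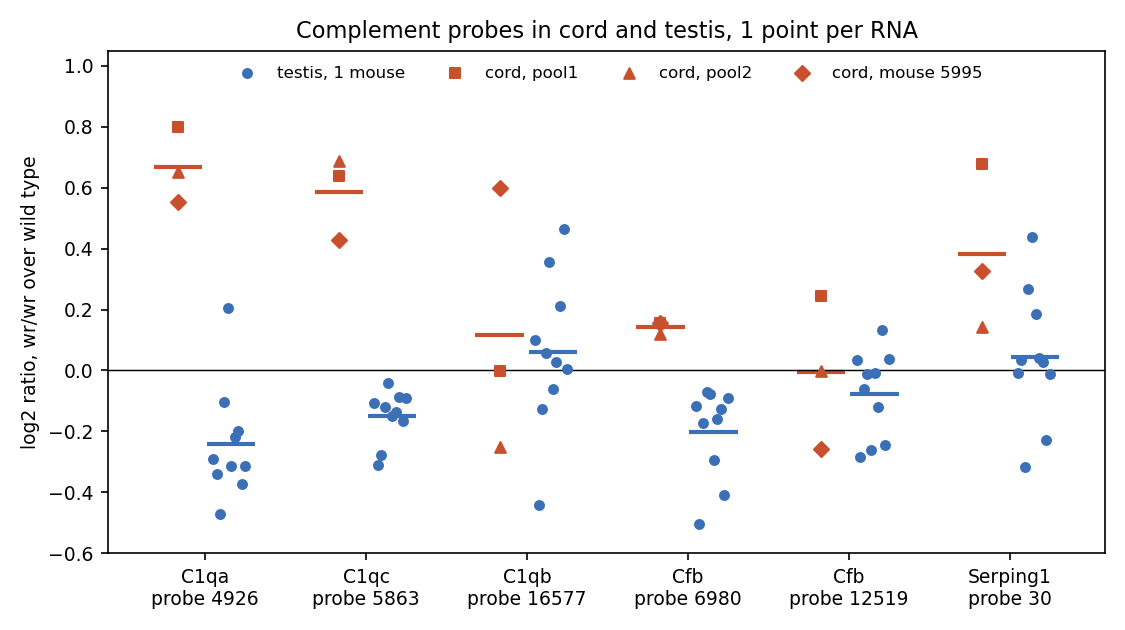
The y axis gives the log2 ratio of wr/wr over wild type for the 6 complement probes on the x axis, with 1 point per RNA (circles, 10 testis mice; squares, triangles and diamonds, cord pool1, pool2 and mouse 5995) and a bar at the mean of each organ. The cord points of C1qa, C1qc and Cfb probe 6980 lie above all 10 testis points, while those of C1qb, Cfb probe 12519 and Serping1 overlap them.

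C1qa encodes the A chain of C1q. In the cord its log2 ratio was 0.80 in pool1, 0.65 in pool2 and 0.55 in mouse 5995. The values on the 10 single arrays ran from 0.501 to 0.942. All 3 RNAs were therefore above 0, with no array at or below 0, and the dyes gave similar means of 0.72 (mutant RNA in Cy5) and 0.61 (in Cy3). The mean was 0.67 ± 0.12 (n = 3), a 1.59-fold higher signal, with a 95% confidence interval from 0.34 to 0.99, and 3.62% of the probes tested in cord had a higher mean. The unadjusted limma p was 0.00487 and the adjusted p was 0.542. That is the smallest adjusted p in cord, but many probes share it, among them Serping1 with an unadjusted p of 0.0692, so it gives C1qa no special rank.

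In the testis the 10 mice had a lowest C1qa ratio of -0.47, a median of -0.30 and a highest of 0.20. Only mouse 5995 was above 0, and the other 9 mice lay between -0.47 and -0.10. The value of mouse 5995 rested on 1 of its 4 arrays, at 1.331, whereas the other 3 arrays of that mouse read -0.138, -0.09 and -0.284. The testis mean was -0.24 ± 0.19 (n = 10), or 1.18-fold lower, with a confidence interval from -0.37 to -0.12 and a limma adjusted p of 0.0262. With the mutant RNA in Cy5 all 10 mice were below 0 (mean -0.35), and with it in Cy3 9 of 10 were (mean -0.13, limma adjusted p 0.365 on those arrays alone). The call was lost without mouse 5907 (adjusted p 0.0538), without mouse 6069 (0.0575) or without mouse 6493 (0.0565), and without mouse 5995 the mean was -0.29 with an adjusted p of 0.00885.

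C1qc encodes the C chain. Its cord ratio was 0.64 in pool1, 0.69 in pool2 and 0.43 in mouse 5995. All 10 arrays were above 0, from 0.083 to 0.937, and the lowest was the array of mouse 5995 with the mutant RNA in Cy3. The cord mean was 0.59 ± 0.14 (n = 3), 1.5-fold above the wild type, with a confidence interval from 0.25 to 0.92. Its unadjusted limma p was 0.00832 and its adjusted p 0.542. A higher mean was seen for 4.95% of the probes tested in cord.

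The testis ratio of C1qc was below 0 in all 10 mice, with a lowest of -0.31, a median of -0.13 and a highest of -0.04. The mean was -0.15 ± 0.08 (n = 10), 1.11-fold lower, with an interval from -0.22 to -0.08 and a limma adjusted p of 0.0204. The spread between mice was thus smaller than for C1qa. The dyes differed in size, at -0.23 for mutant RNA in Cy5 (10 of 10 mice below 0) and -0.07 in Cy3 (6 of 10). On the Cy3 arrays alone the call was lost (adjusted p 0.518). Leaving out any 1 mouse kept it, with adjusted p-values from 0.0233 to 0.0496.

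**Figure D2:**
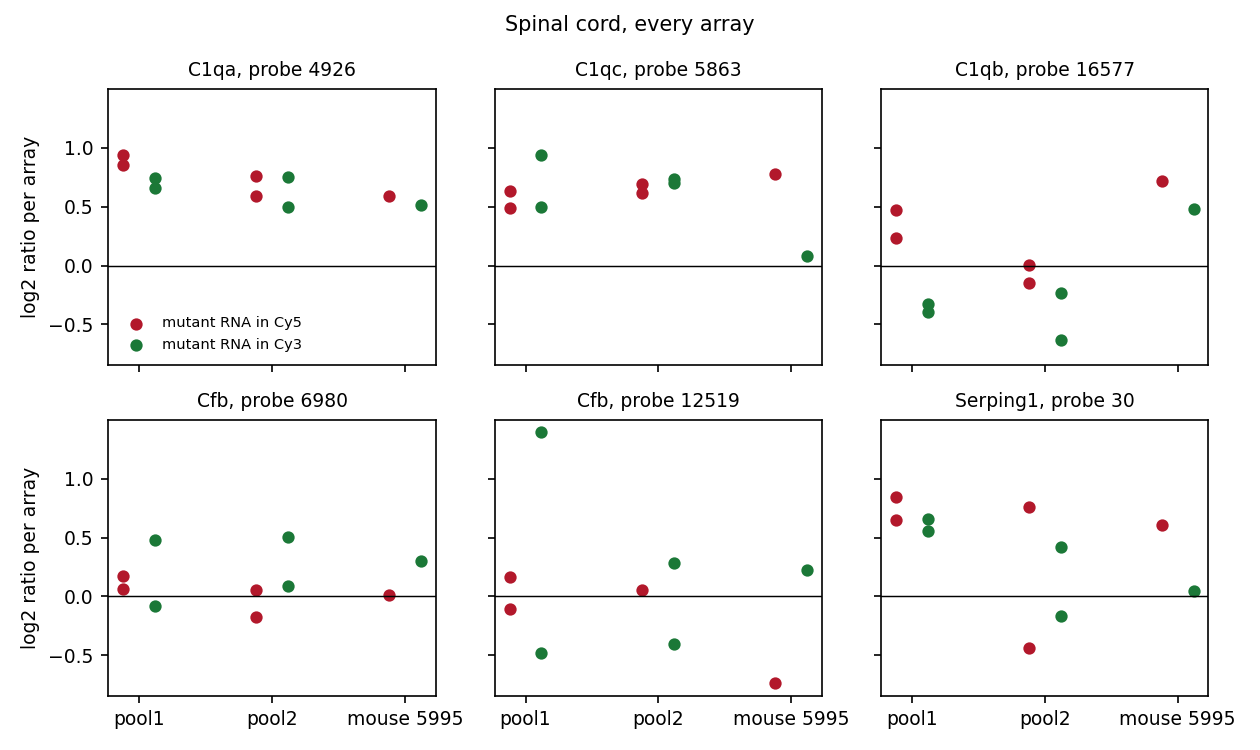
Each panel is 1 complement probe, the y axis gives the log2 ratio of wr/wr over wild type on each single cord array, and the x axis gives the cord RNA, with the dye of the mutant RNA in colour. C1qa and C1qc were above 0 on all 10 arrays, whereas C1qb was above 0 on 5 of 10 and Serping1 on 8 of 10.

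C1qb encodes the remaining chain of the same protein, and its gene is the neighbour of C1qc in the RefSeq order C1qb, C1qc, C1qa on chromosome 4. Its probe did not show the pattern of the other chains. The cord ratio was -0.00 in pool1, -0.25 in pool2 and 0.60 in mouse 5995. The mean of 0.12 ± 0.44 (n = 3) lay well within the spread between RNAs, its interval ran from -0.47 to 0.70, and the limma adjusted p was 0.816. In the testis the lowest mouse was at -0.44, the median at 0.04 and the highest at 0.46, with 7 of 10 mice above 0. The testis mean was 0.06 ± 0.25 (n = 10, interval from -0.11 to 0.23, limma adjusted p 0.631). Its dyes gave opposite signs in both organs, at 0.33 in Cy5 and -0.10 in Cy3 in cord and at 0.19 and -0.08 in testis. The interval in cord includes the means of C1qa and C1qc, so a difference between the chains was not resolved there.

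The chains were also compared within each mouse, a comparison chosen after the values were seen. In testis the C1qa ratio was below the C1qb ratio in 9 of 10 mice, by -0.30 ± 0.24 (n = 10, two-sided exact sign-flip permutation p = 0.00391, adjusted p = 0.0234 over 6 such comparisons). The C1qc ratio was below the C1qb ratio in 9 of 10 mice as well, by -0.21 ± 0.20 (exact p = 0.00781, adjusted p = 0.0234). Both differences came largely from 1 dye. In Cy5 the testis means were -0.35 for C1qa, -0.23 for C1qc and 0.19 for C1qb, whereas in Cy3 they were -0.13, -0.07 and -0.08. In cord C1qa minus C1qb was 0.55 ± 0.52 and C1qc minus C1qb 0.47 ± 0.57 (n = 3, exact p = 0.5 for both), where 3 RNAs allow no exact p below 0.25. Probes of different sequence can respond differently to the same change, and whether the C1qb probe does so was not tested.

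The starts of the C1qb and C1qc genes are shown because the probes of these neighbours gave different mean ratios. In cord that difference was not resolved, and in testis it came largely from 1 dye. The sequences are the 250 bases before each start in RefSeq on GRCm38.p6, both on the minus strand, at chr4:136886201-136886450 for C1qb and chr4:136892915-136893164 for C1qc. Capitals mark the motif GAGGAA, the core bound by the myeloid factor PU.1, or its other strand TTCCTC.
C1qb: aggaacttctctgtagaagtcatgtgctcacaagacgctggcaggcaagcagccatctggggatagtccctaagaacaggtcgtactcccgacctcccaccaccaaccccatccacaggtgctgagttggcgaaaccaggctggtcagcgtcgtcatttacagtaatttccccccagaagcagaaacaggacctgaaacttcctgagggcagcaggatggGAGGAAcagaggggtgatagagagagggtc
C1qc: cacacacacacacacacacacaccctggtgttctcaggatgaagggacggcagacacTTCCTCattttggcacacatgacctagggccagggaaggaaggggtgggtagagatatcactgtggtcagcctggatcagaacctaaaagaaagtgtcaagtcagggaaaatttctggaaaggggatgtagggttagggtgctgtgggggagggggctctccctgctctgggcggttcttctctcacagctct
Each sequence held 1 match, which began at position -30 from the start in C1qb and at position -193, on the other strand, in C1qc. On both strands together, 23.3% of all 32851 promoters held the motif in this window (7639 promoters), so its presence in both is a description only. Of the 7 genes, 3 had an entry in the promoter table (C1qb, C1qc and C3).

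Cfb encodes factor B of the alternative pathway, and its probes did not give the same result. Probe 6980 had testis ratios with a lowest of -0.51, a median of -0.14 and a highest of -0.07, and all 10 mice were below 0. Its testis mean was -0.20 ± 0.15 (n = 10), 1.15-fold lower, with an interval from -0.31 to -0.10 and a limma adjusted p of 0.026. Both dyes gave means below 0, at -0.18 in Cy5 (8 of 10 mice below 0, adjusted p 0.116 on those arrays alone) and -0.22 in Cy3 (9 of 10). The call was lost without mouse 6069 (adjusted p 0.0523) and without mouse 6493 (0.0548). In cord the ratios were 0.16 in pool1, 0.12 in pool2 and 0.15 in mouse 5995, and the mean of 0.14 ± 0.02 (n = 3) had an interval from -0.15 to 0.43 and a limma adjusted p of 0.6. The closeness of the 3 RNAs did not extend to the dyes, which gave 0.02 in Cy5 and 0.26 in Cy3.

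Probe 12519 of Cfb had testis ratios with a lowest of -0.29, a median of -0.04 and a highest of 0.13, a mean of -0.08 ± 0.14 (n = 10) and a limma adjusted p of 0.28. In cord it read 0.24 in pool1, -0.00 in pool2 and -0.26 in mouse 5995, with a mean of -0.01 ± 0.25 (n = 3, limma adjusted p 0.991). The values of the 3 cord RNAs thus fell on both sides of 0. Probe 6980 was below probe 12519 in 9 of 10 testes, by -0.12 ± 0.13 (n = 10, two-sided exact sign-flip permutation p = 0.0234, adjusted p = 0.0468). The means of probe 12519 by dye were -0.12 in Cy5 and -0.03 in Cy3. With the probes of a gene averaged first, Cfb was not called in testis (-0.14, limma adjusted p 0.0526). The testis result for Cfb therefore holds for 1 probe, not for the gene.

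**Figure D3:**
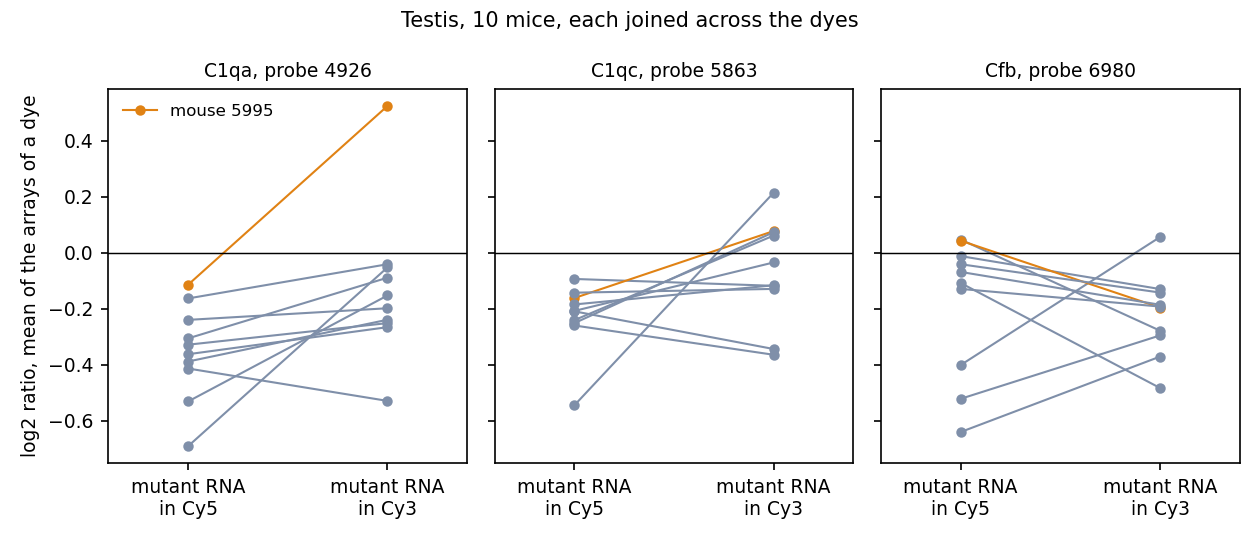
For C1qa, C1qc and Cfb probe 6980, each line joins the log2 ratio of 1 testis mouse on its Cy5 and Cy3 arrays (the dye of the mutant RNA), with mouse 5995 in orange and the other mice in grey. C1qa averages -0.35 in Cy5 and -0.13 in Cy3, C1qc -0.23 and -0.07, and Cfb probe 6980 -0.18 and -0.22.

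Serping1 encodes the C1 inhibitor, which inactivates C1r and C1s. In cord its ratio was 0.68 in pool1, 0.14 in pool2 and 0.33 in mouse 5995. All 3 RNAs were above 0 in each dye, but 2 of the 10 arrays, both of pool2, were below 0. The mean was 0.38 ± 0.27 (n = 3), 1.30-fold above the wild type, with an interval from -0.05 to 0.81, an unadjusted limma p of 0.0692 and an adjusted p of 0.542. In testis the lowest mouse was at -0.32, the median at 0.03 and the highest, mouse 5995, at 0.44. The lowest value, of mouse 6069, rested on 1 array at -1.921, and the other arrays of that mouse were above 0. The testis mean of 0.04 ± 0.22 (n = 10, interval from -0.10 to 0.19, limma adjusted p 0.697) was smaller than the spread between mice.

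The cord signs were counted beside those of all probes. Above 0 in all 3 cord RNAs were 4 of the 6 probes (C1qa, C1qc, Serping1 and Cfb probe 6980) and 18.5% of the probes tested. Above 0 in all 3 RNAs in each dye taken alone were 3 probes, C1qa, C1qc and Serping1, and 3.79% of all probes tested. When each cord array entered as 1 value, with a dye term and the RNA as a random block (consensus correlation 0.0386), limma called C1qa (0.69, adjusted p 0.00219) and C1qc (0.61, adjusted p 0.0131), among 362 probes or 2.12% of those tested. That fit treats repeat arrays of 1 RNA as nearly independent. The 0 calls of the fit over 3 RNAs stand beside its power, since limma recovered 0% of 200 simulated shifts of 1 log2 unit at this size.

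The testis and cord ratios were then set against each other in 1 unpaired fit over the 13 RNAs, with 1 pooled spread for both organs. If cord RNAs vary more than testes, such a fit gives intervals that are too narrow. For C1qc the SE of the difference was 0.077, below the 0.118 of its cord mean alone. For Cfb probe 6980 these were 0.096 and 0.103. C1qa was 0.91 log2 units lower in testis than in cord (SE 0.12, interval from -1.16 to -0.66, limma adjusted p 0.00104). C1qc was 0.73 lower (SE 0.08, interval from -0.90 to -0.57, limma adjusted p 0.000302), and Cfb probe 6980 was 0.35 lower (SE 0.10, interval from -0.55 to -0.14, limma adjusted p 0.0244). For these 3 probes all 3 cord RNAs lay above all 10 testes, as for 6.89% of the probes tested in both organs. Serping1 was 0.34 lower, with an unadjusted limma p of 0.0384 and an adjusted p of 0.114. C1qb differed by -0.06 (interval from -0.45 to 0.34, limma adjusted p 0.851) and Cfb probe 12519 by -0.07 (limma adjusted p 0.67).

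Leaving out any 1 of the 13 RNAs kept the calls of C1qa and C1qc, and the call of Cfb probe 6980 was lost without the cord of mouse 5995 (adjusted p 0.0643). It was also lost on Cy5 arrays alone (-0.21, adjusted p 0.383) and with the Cfb probes averaged (-0.21, adjusted p 0.122). In a paired fit, with the animals shared by a cord RNA and its testes as a replicate block, 3 pairs remained, and the difference was -0.79 for C1qa and -0.69 for C1qc (limma adjusted p 0.391 for both) and -0.29 for Cfb probe 6980 (0.411). That fit called 0 of the 6 probes and 0 of all probes tested.

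**Figure D4:**
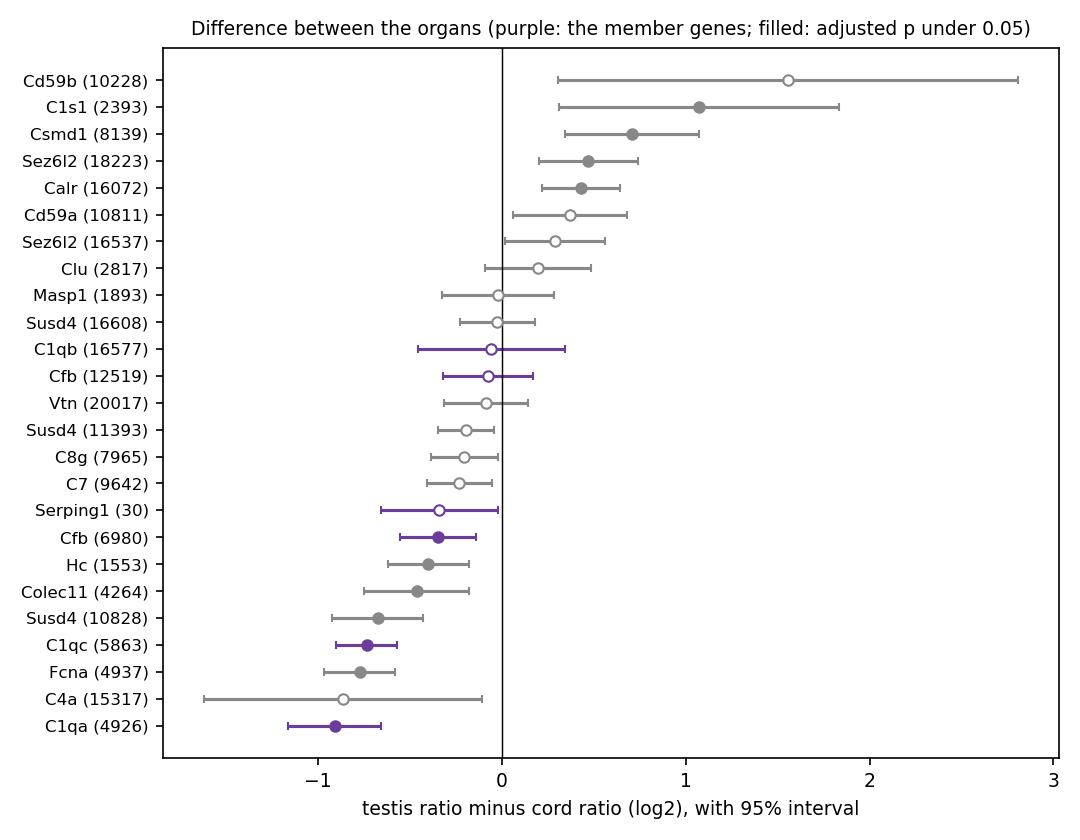
The x axis gives the testis minus cord difference in log2 ratio with its 95% confidence interval for the 6 probes of the set (purple) and for other complement genes with an unadjusted p under 0.05 in any comparison (grey), with filled points for an adjusted p under 0.05. C1qa (-0.91), C1qc (-0.73) and Cfb probe 6980 (-0.35) are filled, and the interval of C1qb, centred at -0.06, spans 0. All intervals come from the unpaired fit with 1 pooled spread for both organs.

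Across the 10 testis mice, 5 pairs of complement genes were correlated, with permutation p-values adjusted over the 5. C1qa and Serping1 gave Pearson r = 0.87 (permutation p = 0.00056, adjusted p = 0.0028) and Spearman rho = 0.806 (adjusted p = 0.0307). Without mice 5995 and 6335, the farthest from the C1qa median, r was 0.707. Without mouse 5995 alone, whose C1qa value rests on 1 array, r was 0.808 and did not pass (permutation, adjusted p = 0.052), nor did it after scaling the arrays to 1 spread (r = 0.605, adjusted p = 0.0982). On the Cy5 arrays alone r was 0.628 (adjusted p = 0.0902) and on the Cy3 arrays alone 0.483 (0.201), so neither dye gave the relation by itself after adjustment. Single arrays also weighed on Serping1. In mouse 6069, the lowest for both genes, 1 array read -1.921 and the others 0.143, 0.071 and 0.437. In mouse 5905, 1 array read 1.135 and the others -0.231, -0.101 and -0.058. Without mouse 6069 r was 0.842 (permutation, adjusted p = 0.0175), and without mouse 5905 it was 0.934 (adjusted p = 0.0005). Of 19393 other testis probes, 20 (0.103%) reached an r with C1qa as high as in all 10 mice.

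Among the C1q chains, C1qa and C1qc gave r = 0.675 (permutation p = 0.038, adjusted p = 0.0633) and rho = 0.77 (adjusted p = 0.0307), with r = 0.68 without the farthest pair of mice. C1qb and C1qc gave r = 0.713 (adjusted p = 0.052) and rho = 0.588 (adjusted p = 0.101), with r = 0.813 without the farthest pair. C1qa and C1qb gave r = 0.444 (adjusted p = 0.198) and rho = 0.467, and C1qa and Cfb r = 0.489 (adjusted p = 0.188) and rho = 0.733 (adjusted p = 0.0328). For the latter r was 0.328 without the farthest pair of mice. All of these mice were measured against 1 wild-type pool.

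The named probes whose testis values were most like the mean of the C1q chains over the 10 mice were those of Rhox5, a homeobox gene of Sertoli cells (r = 0.972), the galectin gene Lgals4 (0.968), the kinase of N-acetylglucosamine Nagk (0.963), the small GTPase gene Arf2 (0.959) and the transcription factor gene Cebpa (0.951). These were the highest of all named probes, and none of them was called in testis.

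By its median, the list of microglia and macrophage markers had the signs of C1qa and C1qc in both organs, though not every probe did. In cord, 9 of the 10 marker probes tested were above 0, as were 8448 of all 17055 probes. The exception, Fcgr3 probe 10466, was below 0 in all 3 RNAs (-0.25 ± 0.27), while Fcgr3 probe 8389 was at 0.13 ± 0.20. The cord median was 0.74, with RNA medians of 0.77 in pool1, 0.75 in pool2 and 0.59 in mouse 5995. The largest were Lgals3, a galectin of activated microglia and macrophages, at 1.43 ± 0.31, and Trem2, a microglial lipid receptor, at 1.22 ± 0.70 (n = 3 each, limma adjusted p 0.542 for both). In testis, 10 of the 14 marker probes were below 0, as were 10789 of all 20218 probes, with a median of -0.09 and medians of the 10 mice from -0.22 to -0.02. In testis 3 of the 14 were called, all lower, beside 5.06% of all probes called lower. These were the macrophage sialomucin gene Cd68 at -0.37 ± 0.26 (limma adjusted p 0.0185), the lysosomal protease gene Ctss at -0.20 ± 0.18 (0.0395) and the lysozyme gene Lyz2, by probe 17239, at -0.18 ± 0.13 (0.024). The other Lyz2 probe, 12258, went the other way, at 0.27 ± 0.38 with 9 of 10 mice above 0 (0.127), as did Tyrobp, a signalling adaptor, at 0.24 ± 0.45 (0.236). The part of these cells in the C1q ratios was not tested.

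The other cell lists had smaller cord medians. Astrocyte markers had a cord median of 0.24 (12 of 15 probes above 0) and a testis median of 0.02. Its cord probes of the filament genes Vim (1.43 ± 0.20 and 1.15 ± 0.18) and Gfap (0.69 ± 0.28) were above 0 in all 3 RNAs. Their limma adjusted p was 0.542 each, and Vim was as high as Lgals3. The 3 astrocyte probes below 0 in cord were S100b (-0.57 ± 0.07), Slc1a2 probe 16768 (-0.20 ± 0.15) and Aldoc (-0.14 ± 0.08). Each of them was below 0 in all 3 RNAs. In testis 3 of the 16 astrocyte probes were called higher and 1 lower, beside 12.3% of all probes called. Higher were both Vim probes (0.40 ± 0.20 and 0.23 ± 0.20, limma adjusted p 0.00983 and 0.0386). So was probe 1477 of Sox9, a gene also in the Sertoli cell list (0.19 ± 0.13, 0.023). The other Sox9 probe, 18047, was at -0.14 ± 0.195 (0.14). Probe 16459 of the glutamate transporter gene Slc1a2 fell in testis (-1.08 ± 0.78, limma adjusted p 0.0181). The other Slc1a2 probes were not called there, at 0.01 on 9613, 0.03 on 16768 and -0.16 on 10594 (limma adjusted p 0.863, 0.761 and 0.198). Markers of lymphocytes and neutrophils had a cord median of 0.26 (14 of 17 above 0) and a testis median of -0.11 (16 of 19 below 0). The largest in size were S100a8 in cord (0.54 ± 0.57) and Cd3e in testis (-1.16 ± 3.48). Cd3e was above 0 in 5 of 9 mice and was not called (limma adjusted p 0.481). Of the 19 testis probes 2 were called, both lower, Elane (-0.24 ± 0.21, limma adjusted p 0.035) and Cd2 probe 6304 (-0.21 ± 0.20, 0.047). The other Cd2 probe was at -0.06 ± 0.21 (0.526). Genes of liver plasma proteins, which would travel with liver RNA, had a cord median of 0.41 over 5 probes and a testis median of -0.04 over 6. They were led by Apoa2 in cord (0.42 ± 0.23) and Alb in testis (0.48 ± 1.57). In cord 3 of the 5 probes were above 0, and the 2 below were both of Ttr (-0.41 ± 0.79 and -0.31 ± 0.33). Cord medians were -0.10 for fibroblasts, 0.10 for endothelium and -0.15 for red blood cells. In testis, beside 12.3% of all probes called, Leydig cell markers had a median of -0.21 (3 of 6 called lower, led by Cyp17a1 at -1.16 ± 0.67 and Hsd17b3 at -0.55 ± 0.11). Sertoli cell markers had a median of 0.19 (5 of 11 called higher, with Cst12 at 0.72 ± 0.26 and, not called, Gata1 at 0.51 ± 3.24). Red blood cell markers had a median of 0.32 with 4 of 8 called higher, but all 4 are probes of 1 gene, Hba-a1 (up to 0.51 ± 0.50), while Alas2 was at 0.06 ± 0.25 and Slc4a1 at -0.18 ± 0.19. The remaining testis medians were 0.06 for fibroblasts (led by Pdgfra at -0.45 ± 1.48, with Mgp leading in cord at 0.38 ± 0.08) and -0.05 for endothelium (led by Kdr at -1.05 ± 3.29 and Cdh5 at -0.59 ± 2.40). No probe of these lists was called in testis, and Kdr was above 0 in 5 of 8 mice. In cord the medians of Leydig and Sertoli cell genes were -0.15 and -0.03.

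The wider complement system was read from 71 other symbols, of which 29 genes had 34 probes on the array. In testis 4 of the 34 probes were called higher and 4 lower, beside 12.3% of all probes called, with a median of -0.02 against -0.01 for all probes, and in cord 0 of the 32 tested were called, with a median of 0.06 against -0.00. The 6 probes of the complement components above had medians of -0.11 in testis and 0.26 in cord. For testis minus cord, 4 of 32 were called with the testis higher and 4 with the testis lower, with a median of -0.05, and 21.2% of all probes were called.

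Of the early components, C4a was measured by probes 15317 and 18314. C4a is a near-identical copy of C4b, so which of the pair these probes report is uncertain. Probe 15317 had the highest cord mean of the list, with 1.14 in pool1, 1.44 in pool2 and 0.08 in mouse 5995 (0.89 ± 0.72, n = 3, unadjusted limma p 0.0497, adjusted p 0.542). It was above 0 on 9 of 10 cord arrays, and the array below 0 was of mouse 5995. In testis it ranged from -1.06 to 0.84 among mice (0.02 ± 0.54, n = 10, limma adjusted p 0.928). Probe 18314 did not share the cord pattern, at -0.06 in pool1, 0.61 in pool2 and -0.05 in mouse 5995. C1s1, the protease that C1q activates, had a cord mean of -1.03 ± 1.23 (n = 3) and a testis mean of 0.04 ± 0.28, with a called difference of 1.07 (limma adjusted p 0.0459). Its cord mean was -2.04 in Cy5 and -0.02 in Cy3.

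In the lectin pathway, where ficolins and collectins recognise sugars, Fcna (ficolin A) had the signs of C1qa and C1qc. It was below 0 in all 10 testes (-0.16 ± 0.10, limma adjusted p 0.0205) and above 0 in all 3 cord RNAs (0.61 ± 0.20, unadjusted p 0.0109, adjusted p 0.542), and the difference of -0.77 was called (limma adjusted p 0.000728). Its cord value came almost wholly from 1 dye, with 0.08 in Cy5 and 1.14 in Cy3. Colec11, a collectin, was 0.46 lower in testis than in cord (limma adjusted p 0.0266). Masp1, a protease of this pathway, fell in testis (-0.22 ± 0.18, n = 10, limma adjusted p 0.031) and had a cord mean of -0.20 ± 0.34, whereas the probes of Masp2, the other protease, were at 0.00 ± 0.08 and 0.02 ± 0.13 in testis (limma adjusted p 0.955 and 0.812).

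Among the terminal components, C7 was lower in all 10 testes (-0.19 ± 0.09, limma adjusted p 0.0124) with a cord mean of 0.04 ± 0.17. Hc, the mouse gene of C5, was 0.40 lower in testis than in cord (limma adjusted p 0.0178), with means of -0.08 ± 0.15 and 0.32 ± 0.16. C8g was at 0.06 in testis and 0.26 in cord, and their difference of -0.20 did not pass (limma adjusted p 0.101).

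The inhibitors of the terminal complex gave mixed values in testis. Clu (clusterin), also an abundant Sertoli cell product, was higher in all 10 testes (0.39 ± 0.20, limma adjusted p 0.00967). Cd59a and Cd59b, membrane inhibitors that may share signal as close paralogs, were higher in 9 of 10 testes each (0.17 ± 0.13 and 0.15 ± 0.12, limma adjusted p 0.0335 and 0.0376). Vtn (vitronectin) was at -0.13 ± 0.12 and did not pass (limma adjusted p 0.056). In cord Clu was at 0.20 ± 0.25, Cd59a at -0.20 ± 0.45, Cd59b at -1.41 ± 2.25 and Vtn at -0.04 ± 0.27 (n = 3 each), all smaller than their spread between RNAs. By dye, the cord mean of Cd59b was 0.21 in Cy5 and -3.02 in Cy3. Calr (calreticulin), an endoplasmic reticulum chaperone that also binds C1q, rose in testis (0.19 ± 0.15, limma adjusted p 0.0322). It was below 0 in all 3 cord RNAs (-0.24 ± 0.05), and the difference of 0.43 was called (limma adjusted p 0.0106). The cord value of Calr came from 1 dye, with 0.04 in Cy5 and -0.53 in Cy3.

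The neuronal membrane proteins with complement control domains gave mixed values. Csmd1 had a cord mean of -0.78 ± 0.58 (n = 3, unadjusted p 0.0422) and a difference of 0.71 (limma adjusted p 0.0124). Its cord mean was -1.27 in Cy5 and -0.29 in Cy3, where 2 of 3 RNAs were above 0. Sez6l2 was below 0 in all 3 cord RNAs on both of its probes (-0.55 ± 0.40 on probe 18223 and -0.38 ± 0.34 on probe 16537), and the difference was called on probe 18223 (0.47, limma adjusted p 0.0195) and not on probe 16537 (0.29, 0.117). The 3 probes of Susd4 disagreed. Probe 16608 fell in testis (-0.20 ± 0.14, limma adjusted p 0.0212) and read -0.18 ± 0.12 in cord, while probe 10828 had a cord mean of 0.63 ± 0.33 and a called difference of -0.67 (limma adjusted p 0.00308). By dye, that cord mean was 0.13 in Cy5 and 1.12 in Cy3. Probe 11393 lay between them, with -0.06 in testis and 0.14 in cord.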

How the data were processed

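The authors deposited 1 log2 ratio per probe and array for 50 arrays. The log base is read from the values, and no source used here gives their direction, background correction or normalization. No scanner intensities were used. The number of RNAs, 10 for testis (40 arrays) and 3 for cord (10 arrays), limits the precision. Probe names came from the platform annotation, with 14030 probes under 1 symbol, 5 under several and 6320 under none. Arrays were centred on their median and averaged per RNA as described above. Probes were tested with values in both dyes in at least 8 testis mice (20218 probes) or all 3 cord RNAs (17055), and in both organs for the difference (17005). The fits used lmFit and eBayes of limma 3.58.1 under R 4.3.3, and p-values were adjusted by Benjamini-Hochberg. Correlations used 100000 permutations (scipy 1.17.1).

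Values over 15 in size were positive on all arrays with the mutant RNA in Cy5 (364 in testis, 222 in cord) and negative with it in Cy3 (522 and 364), and no sign was turned. Arrays of other RNAs in 1 dye had median r of only 0.0454 to 0.083, too low for the limit of -0.3 to find a turned array. The labels give the mice of each RNA, and cord RNAs and testes are paired through them. Across probes, their deviations from the organ means had r of -0.00695 for pool1, 0.00759 for pool2 and 0.00842 for mouse 5995. On simulated data, 200 shifts of 0.5 log2 units were recovered in 84.5% of cases in testis and 0% in cord.

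The genes, marker lists and tests were chosen with earlier results of these data known. All probes of the 7 genes are named, with each other complement gene at an unadjusted p under 0.05 in any comparison. The marker lists are given by counts and median with their leading genes, meaning those of the largest size, called or not. The 5 genes most like the C1q mean are named. Gfap, S100b, Aldoc, Sox9, Lyz2, Tyrobp, Ctss, Fcgr3, Elane, Cd2, Ttr, Alas2, Slc4a1 and Masp2 were named after their values were seen. Alternatives were no centring, scaling each array, each dye alone, missing extreme values, a looser filter, single arrays, gene means, turned signs on Cy3 arrays, the replicate block and leaving out each RNA.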

Additional observations from a re-analysis of the deposited data

Results flagged for a closer look

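The mutant ratio differed between the organs for 3 probes, by the test of the difference itself over 13 RNAs, with 1 pooled spread for both organs. It was lower in testis than in cord by -0.91 for C1qa, by -0.73 for C1qc and by -0.35 for Cfb probe 6980 (limma adjusted p 0.00104, 0.000302 and 0.0244). The cord RNAs come from mice whose testes are in the same fit, and with these paired as a replicate block the adjusted p-values were 0.391, 0.391 and 0.411, with 0 calls. No member probe had a testis mouse far enough from the other 9 to stand apart by Dixon's test.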

How the results depend on the processing

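Of the values for the 6 probes under the alternatives, 283 kept direction and side of the threshold, 19 lost the call, 2 gained it and 20 changed sign. The number of member probes called in testis was 3, and 1 with only the Cy3 arrays, 0 with the sign of the Cy3 arrays turned, and 1 to 3 on leaving out 1 mouse. It was 0 in cord, 2 with 1 value per array, and 0 on leaving out any RNA. For the difference it was 3, then 0 with turned signs, 0 with the paired replicate block and 2 to 3 on leaving out 1 RNA. The count above 0 in all 3 cord RNAs in each dye was 3, 0 with turned signs and 3 to 4 on leaving out 1 RNA. Of all probes, limma called 2494 in testis, with 846 to 2618 on leaving out a mouse (846 without mouse 6493), 1352 with only Cy3 arrays, 949 with turned signs and 4590 with 1 value per array. It called 3604 for the difference, with 1256 after scaling, 1604 with only Cy5 arrays, 1832 with turned signs and 0 with the replicate block. After scaling, cord values were 0.40 for C1qa and 0.34 for C1qc. Turned signs gave C1qa -0.11 in testis and 0.05 in cord, and C1qc -0.08 and 0.08. The causes of these changes were not tested.

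Changed signs with only Cy5 arrays were, for the difference, Cfb probe 12519 at 0.093, Clu at -0.14, C8g at 0.044, Cd59b at -0.0015 and Susd4 probe 11393 at 0.10; in cord, Vtn at 0.22, Cd59b at 0.21, Susd4 probe 11393 at -0.23, Calr at 0.040 and Susd4 probe 16608 at 0.053; in testis, C1s1 at -0.074, Hc at 0.024 and Colec11 at 0.025; and r of -0.138 for C1qa with C1qb and -0.625 for C1qb with C1qc. With only Cy3 arrays they were, in testis, C1qb at -0.075, C4a probe 15317 at -0.082, Susd4 probe 11393 at 0.016 and Sez6l2 probe 16537 at 0.0185; in cord, Cfb probe 12519 at 0.21, C1qb at -0.10, Clu at -0.18 and C7 at -0.12; for the difference, C1qb at 0.029, Susd4 probe 16608 at 0.30 and Vtn at 0.21; and r of -0.18 for C1qa with Cfb. Turned signs gave Cfb probe 6980 0.019 in testis, -0.12 in cord and 0.14 for the difference, and Cfb probe 12519 0.17 for the difference. Scaling gave Cfb probe 12519 0.015 and Vtn 0.016 in cord, C1s1 -0.0027 in testis and C1qb 0.0018 for the difference. With 1 value per array, cord was 0.018 for Cfb probe 12519 and 0.014 for Vtn, and C1qb 0.031 for the difference. Gene means gave 0.069 for Cfb and 0.20 for Susd4 in cord. The replicate block gave C1qb 0.060 for the difference.

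Signs also changed on leaving out 1 RNA. The ranges for the difference were -0.24 to 0.19 for C1qb, -0.20 to 0.051 for Cfb probe 12519, -0.21 to 0.12 for Masp1 and -0.083 to 0.031 for Susd4 probe 16608. In cord they were -0.13 to 0.30 for C1qb, -0.036 to 0.13 for C7, -0.41 to 0.033 for Cd59a, -0.13 to 0.12 for Cfb probe 12519 and -0.12 to 0.11 for Vtn. In testis they were -0.030 to 0.080 for C1s1, -0.065 to 0.15 for C4a probe 15317 and -0.0010 to 0.083 for Serping1.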
